A study of Bos taurus with 8 samples.

Results

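Transcription factors that direct the endothelial program were examined in RNA-seq libraries from bovine preadipocyte clones. The genes were chosen by name, with earlier results of these libraries known, and comprise the ETS factors *ERG*, *FLI1*, *ETS1* and *ELK3*, the SOX factors *SOX7*, *SOX17* and *SOX18*, and the hematopoietic and endothelial regulators *TAL1*, *LMO2* and *GATA2*. All 10 were in the gene table, which held 18871 named genes, and all 10 were among the 18339 genes tested. Because the choice drew on the difference between the groups, that difference is described for these 10 genes without p-values, and it is not a test of them.

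Endothelial cells line blood and lymphatic vessels, and their identity is set by combinations of factors more than by any single one. ETS factors bind the GGAA core found in the enhancers and promoters of nearly all endothelial genes, SOXF factors act in arterial, venous and lymphatic specification, and TAL1 works in a complex in which LMO2 bridges it to a GATA factor. Several of these genes are also used outside vessels: *ETS1* and *ELK3* are broadly expressed in mesenchymal cells, and *GATA2* is expressed in preadipocytes, where it restrains adipocyte differentiation.

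The libraries came from clones each grown from a single cell of the stromal vascular fraction of fat of adult male Angus cross steers. There were 4 clones from intramuscular fat (IMF1 to IMF4) and 4 from subcutaneous fat (SF1 to SF4), with no genetic modification in either group. Per the study's methods, clones were picked for proliferation, adipogenic potential and fibroblast-like morphology, and RNA was taken at the preadipocyte stage near confluence, whereas the series description places adipogenic induction before sequencing. The study took every clone of a group from its own tissue sample, and since there were fewer steers than clones, some steers will have given a clone to both groups if each sample of a depot came from its own steer. Which clones these are is not stated in the sources used here, so the tests treat the clones as independent, and errors and p-values measure the spread between them. Total counts ranged from 19654917 to 29308882 per library, and libraries of the same group differed by more than sampling noise, so none looked like a second deposit of another.

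Of the 10 genes, 6 were higher in the IMF clones past both thresholds used (an adjusted p under 0.05 together with a log2 fold change of 1 or more in size), 1 was lower and 3 did not reach the thresholds (9 were under the p threshold alone, as were 25.8% of all genes). Among all genes tested, 8.82% passed in either direction, 4.78% as higher and 4.04% as lower in IMF. The median log2 fold change was 3.88 over the 10 genes and -0.03 over all genes tested. The groups did not overlap in 9 of the 10 genes. IMF was the higher group in 8 of them, a pattern seen in 18.0% of all genes, and SF was the higher group in 1, as in 14.1% of all genes. At most 3 counts in every SF clone, with more in an IMF clone, were found for 3 of the 10 (*SOX7*, *SOX18* and *LMO2*) and for 1.55% of all genes. These counts follow from how the genes were chosen, and nothing is read from their excess over the background. Levels are given as counts, as CPM (the usual depth-scaled count, here after TMM scaling, for comparing clones) or as TPM (scaled for gene length and depth, for comparing genes).

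**Figure D1:**
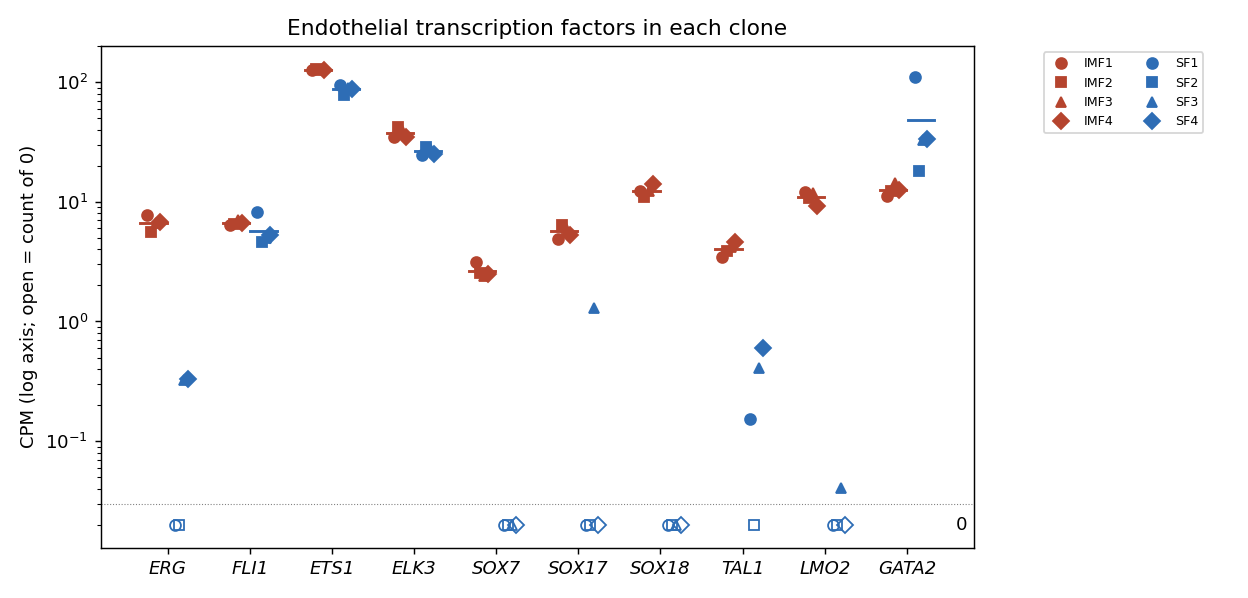
Expression of the 10 transcription factors in CPM on a log axis, with 1 symbol per clone (red, IMF1 to IMF4; blue, SF1 to SF4), open symbols under the dotted line for a count of 0, and a bar for the group mean where no clone of the group had a count of 0. All SF clones lie below all IMF clones for *ERG*, *SOX7*, *SOX17*, *SOX18*, *TAL1* and *LMO2*, with SF3 at 1.30 CPM for *SOX17* and every other SF value of these genes under 1 CPM, and *GATA2* is higher in every SF clone than in any IMF clone.

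*ERG* (gene ID 535231, chr1:150668910-150985196 in ARS-UCD2.0), an ETS factor that maintains junctions and quiescence in mature endothelium, had 161, 171, 146 and 143 counts in IMF1 to IMF4 and 0, 0, 8 and 6 counts in SF1 to SF4. No IMF clone came close to an SF clone, and the few counts on the SF side came from SF3 and SF4 alone. Mean expression reached 6.69 ± 0.874 CPM in IMF against 0.164 ± 0.189 CPM in SF (SD, n = 4 each), or 40.8-fold by the means, with a log2 fold change of 5.27 ± 0.74 (SE).

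*FLI1* (gene ID 529124, chr29:32052394-32184259), the closest relative of *ERG* and a factor shared by endothelial and hematopoietic cells, had 134, 200, 156 and 139 counts in IMF and 159, 92, 123 and 95 counts in SF. The groups overlapped, since SF1 was above every IMF clone in CPM and the other SF clones were below. Its mean was 6.66 ± 0.282 CPM in IMF, against 5.75 ± 1.63 CPM in SF (SD, n = 4 each), and the log2 fold change of 0.21 ± 0.19 (SE) did not reach the thresholds. Scaled for length, *FLI1* and *ERG* overlapped in the IMF clones, at 3.80 ± 0.378 and 3.01 ± 0.542 TPM, whereas in the SF clones they stood at 3.22 ± 0.871 and 0.0699 ± 0.0812 TPM.

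*ETS1* (gene ID 540313, chr29:31810694-31949762), the founding member of the ETS family and a factor in angiogenesis, had 2630, 3954, 2802 and 2655 counts in IMF and 1852, 1545, 2193 and 1586 counts in SF. All IMF clones were above all SF clones once scaled, at 127 ± 1.44 against 87.2 ± 7.36 CPM (SD, n = 4 each). *ELK3* (gene ID 541125, chr5:60480300-60550378), a ternary complex factor that can repress its targets until it is phosphorylated, had 725, 1284, 878 and 730 counts in IMF and 482, 572, 697 and 455 in SF, and its groups did not overlap either, at 37.8 ± 3.65 and 26.7 ± 2.06 CPM (SD, n = 4 each). The log2 fold changes of *ETS1*, 0.54 ± 0.08 (SE), and of *ELK3*, 0.50 ± 0.09 (SE), stayed under the fold threshold. *ELK3* overlaps the next gene, *CDK17*, in the annotation, and the study's methods call the libraries non-stranded whereas the series' labels describe second-strand marking with dUTP, so reads in the overlap may have been assigned to either gene.

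*SOX7* (gene ID 541256, chr8:8558698-8565619), a SOXF factor of early endothelial and hematopoietic progenitors, had 66, 77, 53 and 52 counts in IMF and 0 in each SF clone. *SOX18* (gene ID 519439, chr13:53823431-53825287), a SOXF factor that acts upstream of *PROX1* in lymphatic specification, had 255, 337, 273 and 294 counts in IMF and likewise 0 in each SF clone. Against a floor of 3 counts in each SF library, *SOX7* at 2.64 ± 0.354 CPM (SD, n = 4) was at least 17.9-fold higher in IMF. *SOX18* at 12.4 ± 1.22 CPM (SD, n = 4) was at least 83.9-fold higher. A count of 0 at this depth limits the level of these genes in the SF clones and does not show that they are silent.

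*SOX17* (gene ID 534010, chr14:22229926-22231726), a SOXF factor of arterial endothelium, had 102, 197, 134 and 111 counts in IMF and 0, 0, 32 and 0 counts in SF. All of its SF counts came from SF3, which at 1.30 CPM was still below the lowest IMF clone at 4.89 CPM. The means were 5.67 ± 0.710 and 0.325 ± 0.649 CPM (SD, n = 4 each), a 17.5-fold difference with a log2 fold change of 3.99 ± 1.12 (SE). In SF3 the summed level of 6 endothelial markers was 0.88 TPM, inside the range of the other SF clones, 0.61 to 1.14 TPM. The call of *SOX17* was lost without any 1 of the IMF clones, without SF2 and without SF4, while without SF3, where all remaining SF counts were 0, the fitted log2 fold change was 9.94 and depends on the prior count.

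*TAL1* (gene ID 518657, chr3:99005748-99022659), a basic helix-loop-helix factor needed for blood and endothelial specification, had 72, 118, 93 and 97 counts in IMF and 3, 0, 10 and 11 counts in SF. No SF clone came near the IMF clones, with means of 4.04 ± 0.496 and 0.291 ± 0.268 CPM (SD, n = 4 each), a 13.8-fold difference and a log2 fold change of 3.77 ± 0.68 (SE). *LMO2* (gene ID 614876, chr15:64472394-64503033), the LIM-only bridging protein of the same complex, had 254, 332, 259 and 195 counts in IMF and 0, 0, 1 and 0 counts in SF. Its mean was 11.0 ± 1.28 CPM in IMF (SD, n = 4), and the ratio of summed counts scaled by library size was 905, with an exact 95% interval of 162 to 35792 that covers counting error only.

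*GATA2* (gene ID 506809, chr22:59347411-59355012), the GATA factor of endothelial and hematopoietic progenitors and of preadipocytes, went the other way. It had 232, 377, 318 and 264 counts in IMF and 2146, 359, 802 and 607 counts in SF, and in CPM the lowest SF clone (SF2, 18.0) was above the highest IMF clone (IMF3, 14.4). The IMF clones averaged 12.6 ± 1.36 CPM against 48.5 ± 41.7 CPM for the SF clones (SD, n = 4 each), and the log2 fold change was -1.94 ± 0.51 (SE). SF1 alone stood at 110 CPM, and without it the log2 fold change was -1.15, still past the thresholds. The call was lost in 7 of 19 alternatives, among them leaving out any 1 of the IMF clones, limma-voom, a test against the fold threshold and a fit with the replicate number as a block (log2 fold change -1.58). Of the TAL1, LMO2 and GATA2 complex, *TAL1* and *LMO2* thus had higher means in the IMF clones and *GATA2* had a lower one.

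Compared per length, *ETS1* was the most abundant of the 10 in the IMF clones at 39.6 ± 2.66 TPM (SD, n = 4). It was followed by *ELK3* at 15.2 ± 1.72 TPM and *SOX18* at 12.1 ± 1.34 TPM, and at each of these steps the ranges over the clones did not overlap. *SOX17* (7.67 ± 0.997 TPM), *GATA2* (6.98 ± 1.04 TPM) and *LMO2* (5.90 ± 1.05 TPM) formed a middle group in which neighbours overlapped. *FLI1* and *ERG* came next in TPM, and *SOX7* (1.24 ± 0.220 TPM) and *TAL1* (0.855 ± 0.0984 TPM) were the lowest, without overlap. The most abundant SOXF factor was thus *SOX18*, above *SOX17* and *SOX7* in every IMF clone, and 6 of the 10 genes lay above the median of all genes tested in mean TPM.

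In the SF clones *ETS1* (26.7 ± 2.40 TPM), *GATA2* (26.1 ± 22.2 TPM) and *ELK3* (10.7 ± 1.71 TPM) led, and the ranges of *GATA2* overlapped those of both others. *FLI1* followed at 3.22 ± 0.871 TPM, and the other 6 factors were each under 0.5 TPM on average, with *SOX17* the highest of them at 0.454 ± 0.908 TPM. The rank of *GATA2* by mean TPM was at the 82.4 percentile of genes tested in SF and at the 55.0 percentile in IMF, while *ETS1* stayed high in both, at the 82.8 and 87.9 percentiles. Only 3 of the 10 genes were above the median gene in the SF clones.

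Among the IMF clones the coefficient of variation of CPM ranged from 1.1% for *ETS1* to 13.4% for *SOX7*. For *ETS1* this was under the 1.8% that counting alone gives at its depth, and of genes with a like mean (within a factor of 1.5 in CPM) 98.1% varied more. *FLI1* varied by 4.2% among IMF clones, also under its counting error of 8.1%, and by 28.3% among SF clones. *GATA2* varied by 10.8% among IMF clones and by 85.9% among SF clones, where counting alone gives 3.2% and 0.5% of genes with a like mean varied more. Among IMF clones *ELK3* varied by 9.7%, against 3.4% from counting alone and a median of 5.8% over genes with a like mean, of which 15.1% varied more. *ERG* varied by 13.1% among IMF clones, and 40.3% of genes with a like mean varied more. *ELK3* was the only one of the 8 factors detected in both groups with a larger coefficient of variation in IMF than in SF (7.7%). A larger spread in SF was common: over the 10948 genes averaging 100 counts or more in each depot, the median coefficient of variation was 6.60% in IMF and 13.4% in SF, and 74.7% of these genes varied more in SF.

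Genes known as targets or markers of these factors were compared next. This list and the other gene lists were drawn from textbook knowledge, but with earlier results of these libraries known, as for the factors. Their counts and p-values are therefore descriptive and give no independent support for the factors. Of 24 endothelial genes tested, 18 were higher in IMF and 6 did not reach the thresholds, with a median log2 fold change of 4.49. None was lower past both thresholds by edgeR's quasi-likelihood test, by DESeq2 or by limma-voom, and 1 was lower at an unadjusted p under 0.05 (0 at an adjusted p). *CDH5*, which encodes VE-cadherin and is a direct ERG target, had 1086, 1693, 1123 and 1201 counts in IMF and 4, 3, 3 and 4 counts in SF (log2 fold change 8.25 ± 0.14 (SE), edgeR adjusted p = 4.96e-08). *NOS3*, the endothelial nitric oxide synthase, was at 28.3 ± 1.77 CPM in IMF and had 3 counts in all SF clones together, a ratio of 777 (exact 95% interval 266 to 3770), and *EGFL7*, a secreted angiogenic factor, was at 40.6 ± 1.76 CPM in IMF against 1.42 ± 0.780 CPM in SF (edgeR adjusted p = 3.14e-05). *ENG*, the TGF-beta co-receptor endoglin that mesenchymal cells also express, was at 324 ± 16.6 CPM in IMF against 324 ± 82.8 CPM in SF, and *CLDN5*, a tight junction gene, was at 36.9 ± 11.8 and 31.3 ± 5.45 CPM (SD, n = 4 each), and neither reached the thresholds.

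**Figure D2:**
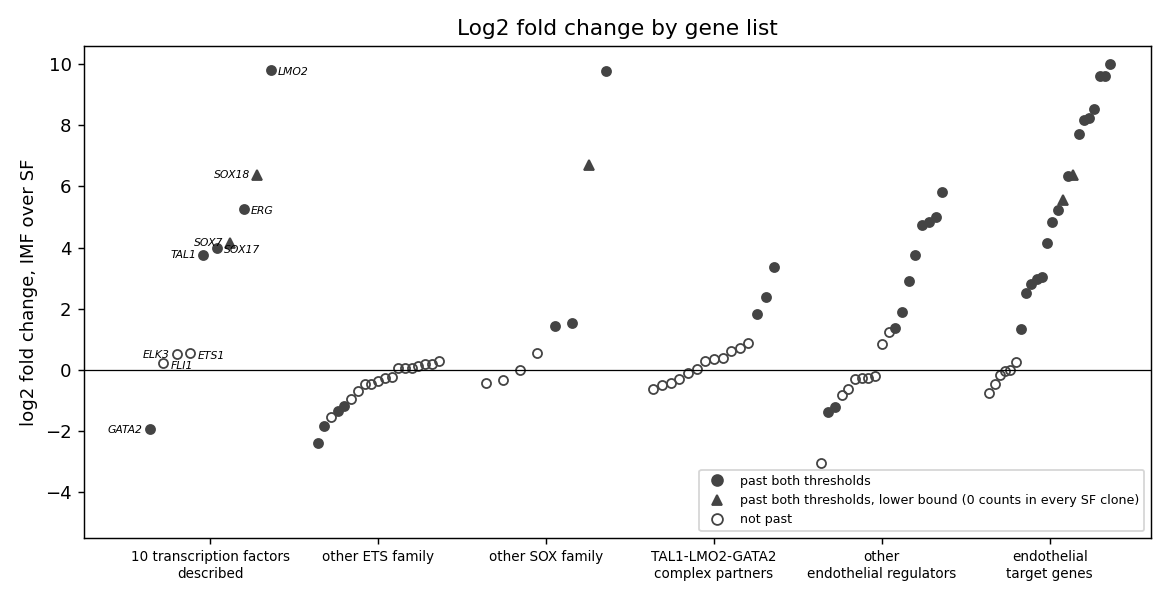
Log2 fold change, IMF over SF, of each tested gene in the 10 transcription factors and 5 related lists, sorted within each list; filled symbols passed both thresholds, triangles are lower bounds for genes with 0 counts in every SF clone, and genes with 1 to 3 counts at most in each SF clone are drawn at their ratio of summed counts. Most endothelial target genes lie above 0, and no other ETS family gene passed as higher.

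Markers of several cell types also differed between the groups, endothelial and muscle markers in the direction of the 6 factors that were higher in IMF and the summed pericyte and smooth muscle markers in the opposite direction. The 6 endothelial defining markers (*PECAM1*, *CDH5*, *KDR*, *TIE1*, *TEK* and *VWF*) summed to 36.4 to 41.1 TPM in the IMF clones and to 0.61 to 1.14 TPM in the SF clones, and all 6, which are also among the 24 genes above, were higher in IMF. In the SF clones *KDR*, the main VEGF receptor, was at 0 counts in each library (at least 82.2-fold higher in IMF) and *TIE1* had 1 count in all. *PECAM1*, the junctional antigen CD31, was at 27.9 ± 2.64 CPM in IMF against 0.324 ± 0.221 CPM in SF. *TEK*, the angiopoietin receptor, kept 10 to 16 counts in each SF clone (0.625 ± 0.210 CPM against 5.14 ± 0.667 CPM in IMF), as did *VWF*, the von Willebrand factor, with 27 to 64 (2.23 ± 0.690 CPM against 12.8 ± 1.16 CPM). Of 4 lymphatic markers tested, 3 (*PROX1*, *PDPN* and *FLT4*) were higher in IMF and *LYVE1* did not reach the thresholds, and the list summed to 46.9 to 66.8 TPM against 0.91 to 3.43 TPM. *PDPN*, which encodes podoplanin and is also expressed outside lymphatic vessels, made up most of that sum in IMF, at 52.0 ± 8.81 TPM, while *PROX1* was at 0.64 ± 0.11 TPM and *LYVE1* at 1.72 ± 1.22 TPM (SD, n = 4 each). The 9 skeletal muscle markers, all higher in IMF, summed to 540 to 705 TPM against 0.59 to 17.3 TPM, among them *MYOD1*, the myogenic master regulator, at 162 ± 12.7 CPM in IMF and 0 counts in each SF clone.

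Pericyte and smooth muscle markers, genes of the vessel wall that stromal cells express too, summed to 2129 to 2680 TPM in IMF and 3441 to 10380 TPM in SF. Of 8 tested, 4 were lower in IMF (*CSPG4*, *CNN1*, *ACTA2* and *TAGLN*; 3 by limma-voom) and 3 were higher (*MCAM*, *MYH11* and *DES*, which is also in the muscle list). Preadipocyte and stromal markers were abundant in both groups, at a sum of 6189 to 7377 TPM in IMF and 9043 to 12297 TPM in SF, with 2 of 9 lower (1 by limma-voom) and 0 higher in IMF past both thresholds by edgeR's quasi-likelihood test (0 higher by DESeq2 and by limma-voom; 1, *PDGFRA*, at an unadjusted and an adjusted p under 0.05 but under the fold threshold). The median log2 fold change of these 9 markers was 0.15, so the lower sum in IMF was not shared by most of them. In 1 of the 9 every IMF clone was above every SF clone, and in 2 every SF clone was above every IMF clone. The stromal genes *PDGFRA*, *PDGFRB*, *LUM* and *DCN* averaged over 100 CPM in both groups. Leukocyte markers, which bear on *FLI1*, *TAL1* and *LMO2* because blood cells use these genes too, summed to 55.6 to 96.2 TPM in IMF and 76.9 to 142 TPM in SF. Of these 8 markers 1 was higher in IMF (*CD14*) and 0 were lower by edgeR's quasi-likelihood test (1 lower at an unadjusted p under 0.05), whereas by DESeq2 and by limma-voom 2 were higher and 1 was lower. The calls of *PTPRC* (lower) and of *LAPTM5* (higher) were each gained in 5 of 19 alternatives, and *PTPRC*, the pan-leukocyte antigen CD45, was at 9.68 ± 7.28 CPM in IMF against 33.3 ± 11.3 CPM in SF (log2 fold change -1.79 ± 0.58 (SE), edgeR adjusted p = 0.0518). *CD34*, a marker of hematopoietic, endothelial and some stromal progenitors, was at 10.5 ± 0.522 CPM in IMF with 4 counts in all SF clones together. The part of each of these cell types in the levels of the 10 factors was not tested, and in bulk RNA a change in the number of cells of a type and a change in RNA per cell cannot be told apart.

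**Figure D3:**
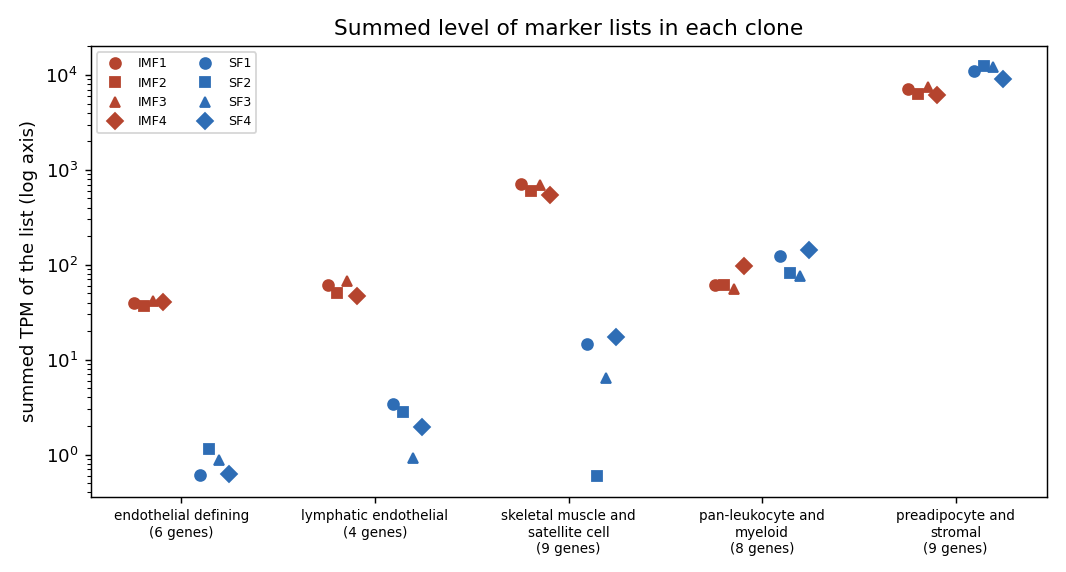
Summed TPM of the tested genes of 5 marker lists in each clone, on a log axis, with 1 symbol per clone (red, IMF; blue, SF). Endothelial, lymphatic (mostly *PDPN*) and skeletal muscle sums separate the groups by more than 10-fold, and the leukocyte sums overlap between the groups. The preadipocyte sums are higher in every SF clone, although the median log2 fold change of the 9 genes in that list was 0.15.

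Other ETS genes, relatives of *ERG*, *FLI1*, *ETS1* and *ELK3*, were lower in IMF or did not reach the thresholds. Of 19 other ETS family genes tested, 4 were lower and 15 did not pass, with a median log2 fold change of -0.36. None was higher past both thresholds by edgeR's quasi-likelihood test, by DESeq2 or by limma-voom. *GABPA*, the 1 gene higher at an unadjusted p under 0.05, missed the fold threshold alone (log2 fold change 0.30, edgeR adjusted p = 0.0117). The 4 were the PEA3 group genes *ETV1* (6.56 ± 0.570 against 34.3 ± 10.4 CPM, edgeR adjusted p = 0.000153), *ETV4* (1.57 ± 0.338 against 5.65 ± 2.74 CPM, edgeR adjusted p = 0.0187) and *ETV5* (3.20 ± 0.426 against 8.12 ± 2.32 CPM, edgeR adjusted p = 0.00336), which respond to growth factor signalling, and *SPI1*, the myeloid factor PU.1 (15.5 ± 5.37 against 34.8 ± 8.38 CPM, edgeR adjusted p = 0.0186, SD, n = 4 each). The groups of *ETV4* overlapped, since SF1 at 1.59 CPM lay within the IMF range of 1.09 to 1.86 CPM, and its call was lost in 4 of 19 alternatives, among them limma-voom and leaving out IMF3. The call of *SPI1* was also lost without IMF3. The epithelial ETS genes *EHF* (208 ± 82.8 against 404 ± 63.2 CPM) and *ELF3* (236 ± 87.8 against 384 ± 128 CPM) did not reach the thresholds. *EHF* was close to them, with a log2 fold change of -0.96 ± 0.26 (SE) and an edgeR adjusted p of 0.0285, and it passed as lower in 5 of 19 alternatives (limma-voom, the fit with the replicate number as a block, and without IMF1, SF2 or SF3).

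Among the other SOX genes, 4 of 8 tested were higher in IMF and 4 did not reach the thresholds, with a median log2 fold change of 0.98. None was lower by edgeR's quasi-likelihood test, at an unadjusted p under 0.05, by DESeq2 or by limma-voom. *SOX8*, a SOXE gene expressed in satellite cells, had 466, 597, 487 and 463 counts in IMF and 2, 0, 0 and 0 counts in SF, a ratio of 876 (exact 95% interval 242 to 7240). *SOX11*, a SOXC gene of progenitor cells, had 0 counts in each SF clone and was at least 104-fold higher in IMF, at 15.4 ± 1.26 CPM. The SOXC gene *SOX4* was at 18.4 ± 0.818 CPM in IMF against 6.37 ± 1.61 CPM in SF (log2 fold change 1.52 ± 0.18 (SE), edgeR adjusted p = 0.000567), and the call of *SOX6*, with an edgeR adjusted p of 0.0484, was lost in 13 of 19 alternatives. A count of 0 in every SF clone was thus found for the SOXF genes *SOX7* and *SOX18* and for the SOXC gene *SOX11*.

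Among the partners of TAL1, LMO2 and GATA2, most did not reach the thresholds. Of 15 tested, 3 were higher in IMF (6 at the adjusted p alone) and 12 did not pass, with a median log2 fold change of 0.36. None was lower past both thresholds by edgeR's quasi-likelihood test, by DESeq2 or by limma-voom, and 2 were lower at an unadjusted p under 0.05 (0 at an adjusted p). *LDB2*, the LIM-domain binding protein that pairs with LMO2, was at 2.70 ± 0.385 CPM in IMF against 0.262 ± 0.237 CPM in SF (log2 fold change 3.35 ± 0.61 (SE), edgeR adjusted p = 0.00453). *GATA6*, the GATA factor of vascular and cardiac mesoderm, was at 7.27 ± 0.372 and 1.41 ± 1.45 CPM (edgeR adjusted p = 0.0329), opposite in direction to *GATA2*, but its call was lost without any 1 of the IMF clones, without SF3 and without SF4. *CBFA2T3*, a corepressor of the complex, was at 3.24 ± 0.260 and 0.917 ± 0.764 CPM (edgeR adjusted p = 0.0342), with a call lost without any 1 clone other than SF1. The E protein gene *TCF12* (99.9 ± 0.948 against 153 ± 54.7 CPM) and *RUNX1* (99.2 ± 3.55 against 64.6 ± 27.5 CPM), a factor of blood emergence, did not reach the thresholds.

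Regulators that act beside the 10 factors in endothelium were split. Of 19 tested, 8 were higher and 2 were lower in IMF, with a median log2 fold change of 0.85. By DESeq2 8 were higher and 3 lower, by limma-voom 9 were higher and 1 lower, and at an unadjusted p under 0.05 edgeR gave 9 higher and 6 lower. Those not past both thresholds included *NFATC1* (log2 fold change -0.84, edgeR adjusted p = 0.00143) and *MEOX1* (-3.06, edgeR adjusted p = 0.0632). *PROX1*, the lymphatic determinant downstream of SOX18, had 65, 95, 88 and 88 counts in IMF and 1, 2, 5 and 1 counts in SF (log2 fold change 5.00 ± 0.42 (SE), edgeR adjusted p = 9.48e-05), and *HHEX*, an early endothelial homeobox gene, had 38, 87, 74 and 50 counts against 4, 0, 2 and 1 (edgeR adjusted p = 0.000931). *MEOX2*, a vascular and muscle homeobox gene, was at 29.6 ± 1.31 and 3.94 ± 1.63 CPM (edgeR adjusted p = 0.00026), and *HEY1*, a Notch target, was at 11.5 ± 0.843 and 4.46 ± 1.41 CPM (edgeR adjusted p = 0.00349). *HLX* was at 4.17 ± 0.724 and 1.13 ± 0.373 CPM (edgeR adjusted p = 0.00183), and *MECOM*, a factor of arterial endothelium and blood stem cells, had 6 counts in all SF clones together, a ratio of 55.9 (exact 95% interval 25.4 to 153). *TBX3*, a T-box repressor, was lower in IMF at 5.91 ± 0.348 against 15.4 ± 1.35 CPM (edgeR adjusted p = 5.05e-05), as was *FOXF1* (edgeR adjusted p = 0.0382), whose call was lost in 10 of 19 alternatives. *EPAS1*, the hypoxia factor HIF-2 alpha, did not reach the thresholds, at 153 ± 7.29 and 183 ± 24.4 CPM.

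Position on the chromosomes, which played no part in choosing the genes, was examined through the nearest tested gene with RefSeq coordinates on each side of every factor. Coordinates were available for 14412 of the 18871 named genes, so an unmatched gene may lie closer than a neighbour given here. Of 18 such neighbours that are not among the 10, none was higher past both thresholds by edgeR's quasi-likelihood test and 1 was lower in IMF, or 5.56% of them against 8.82% of all genes, with a median log2 fold change of 0.21. By DESeq2 0 were higher and 1 was lower, and by limma-voom 0 were higher and 0 were lower. At an adjusted p under 0.05 alone 6 were higher by edgeR (*RPN1*, *FBXO3*, *MRPL15*, *CAPRIN1*, *PINX1* and *STIL*), each with a log2 fold change of 0.72 or less, and 1 was lower. Of all genes, 25.8% were under this cutoff in either direction, so here the share of the 18 neighbours was not below that of all genes. At an unadjusted p under 0.05, 6 were higher and 2 were lower. *SOX18* lay 10.9 kb from *TCEA2* (log2 fold change -0.60 ± 0.19 (SE)) and 6.90 kb from *C13H20orf204* (0.37 ± 0.40). *TAL1* lay 15.4 kb from *STIL* (log2 fold change 0.47 ± 0.15), and *LMO2* lay 64.4 kb from *FBXO3* (0.66 ± 0.09). *GATA2*, lower in IMF, lay 51.3 kb from *RPN1* (log2 fold change 0.59 ± 0.07 (SE)) and 37.9 kb from *EEFSEC* (-0.13 ± 0.13). The other neighbours, *DYRK1A*, *LOC784488*, *LTA4H*, *CDK17*, *PINX1*, *MSRA*, *MRPL15*, *XKR4*, *EFCAB14* and *CAPRIN1*, had log2 fold changes from -0.22 to 0.72. Some of them were distant, with *DYRK1A* 957 kb from *ERG* and *LOC784488* 1242 kb from *ETS1*.

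Of the 4 ETS factors, *FLI1* and *ETS1* lay side by side, and *ERG* lay beside another ETS gene. No tested gene with RefSeq coordinates lay between the members of either pair. *FLI1* and *ETS1* were 103 kb apart on chromosome 29, and *ERG* and *ETS2*, which is expressed in many tissues, were 177 kb apart on chromosome 1. *ETS2* was at 19.2 ± 1.26 CPM in IMF against 26.5 ± 13.9 CPM in SF (SD, n = 4 each), with overlapping groups and a log2 fold change of -0.47 ± 0.34 (SE), beside 5.27 ± 0.74 for *ERG*. The 1 neighbour past the thresholds was *KCNJ5*, a potassium channel gene 78.2 kb from *FLI1*, with 2, 0, 0 and 0 counts in IMF and 2249, 4, 445 and 42 counts in SF (edgeR adjusted p = 0.0161). Its ratio of summed counts, SF over IMF, was 1574 (exact 95% interval 435 to 13002), and SF1 held most of the SF counts. The fitted log2 fold change of *KCNJ5* ran from -12.6 to -8.0 without 1 clone. Its call was lost in 5 of 18 alternatives: without IMF1, without IMF2, without IMF3, under limma-voom and in the test against the fold threshold.

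**Figure D4:**
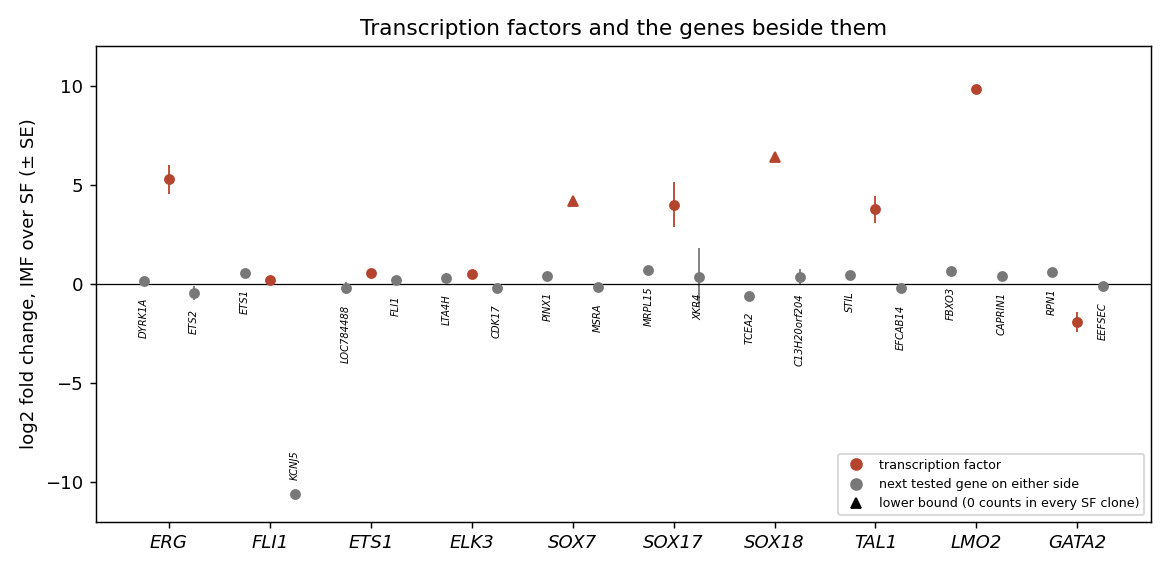
Log2 fold change, IMF over SF (± SE), of each of the 10 transcription factors (red) with the nearest tested genes that had RefSeq coordinates on its lower and higher coordinate side (grey, named). Triangles are lower bounds for genes with 0 counts in every SF clone, and *LMO2* and *KCNJ5* are drawn without an error at their ratio of summed counts; apart from *KCNJ5*, every grey point lies between -0.60 and 0.72.

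The genes whose pattern over the 8 clones was most like that of *ERG* were ranked by the root mean square difference of centred log2 CPM among 15379 genes with a mean of at least 1 CPM. *FABP4*, the fatty acid carrier of adipocytes and of capillary endothelium, ranked first with a difference of 0.33 on the log2 scale, and it had 229, 351, 174 and 172 counts in IMF and 0, 0, 8 and 7 counts in SF. As for *ERG*, the SF counts of *FABP4* came from SF3 and SF4 alone. The sodium channel gene *SCN9A* followed at 0.35 with 0, 0, 12 and 3 counts in SF, and *LOC787891* (0.57), the endothelial adhesion receptor gene *ADGRL4* (0.59) and *LRRN1* (0.61) completed the first 5. Of the other 9 factors, *TAL1* (0.78, rank 35) and *SOX7* (0.79, rank 38) were most like *ERG*, and *SOX17*, *LMO2* and *SOX18* ranked 134, 170 and 246. *ETS1*, *ELK3* and *FLI1* ranked 1990, 2320 and 5202, and *GATA2* ranked 14973. This likeness largely follows the difference between the groups by which the factors were chosen, and several of these genes passed the mean of 1 CPM only through the IMF clones, so it is a description and no added evidence. The order also rests on few SF counts, and with a prior count of 0.5 in place of 2 only 2 of the first 5 genes were kept.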

How the data were processed

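RNA-seq of 4 IMF and 4 SF clones was analysed from 1 table. The authors deposited raw counts per gene and clone, made with Trimmomatic 0.39 and featureCounts 2.0.2; the labels name STAR 2.7.11a as aligner and the paper's methods name HISAT2 with ARS-UCD2.0. How multi-mapped reads were counted is not given in the sources used here. The paper's methods mention TPM, but the deposited columns are whole counts with unequal totals. The deposited gene length in bases was used for TPM. The authors also deposited their own comparison (log2 fold change and its error, test statistic as a score, p-value and adjusted p-value) and mean counts as a signal, none of which was used. Unused sample columns numbered 0. Of 18872 rows, 1 named no gene (0.0148% to 0.0209% of counts) and was left out, as were 532 genes under 20 counts in total (the lowest had 11).

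Counts were tested with edgeR 4.0.16 (R 4.3.3) by a two-sided quasi-likelihood test after TMM scaling, with Benjamini-Hochberg adjustment over 18339 genes. DESeq2 1.42.0, limma-voom (limma 3.58.1), a test against the fold threshold (glmTreat), other scalings, other filters, a replicate block and leaving out each clone were alternatives. Fold changes used edgeR's default prior count of 0.125. On simulated data in which 200 of 18043 genes were shifted by 2 on the log2 scale, edgeR recovered 84%. The shifted genes had a mean over 1 CPM and the shift was split between the groups, so recovery of genes at or near 0 counts in 1 group was not simulated. Where every clone of a group had at most 3 counts, the ratio of summed counts or, at 0 counts, a bound is given instead. Of the named genes, 14412 matched RefSeq symbols or synonyms in ARS-UCD2.0, which gave coordinates and neighbours.

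The 10 genes and all lists were chosen with earlier results of these data known. Named were all 10 genes, their neighbours, the 5 genes most like *ERG* and, in each list, up to 4 genes per direction past the thresholds and 2 not past with the highest mean CPM; *HHEX*, *PROX1*, *ETS2*, *CD14*, *FOXF1*, *GABPA*, *NFATC1*, *MEOX1* and the markers of other cell types were added where a sentence turned on them, some after their values were seen. Lists of erythroid (3 tested), megakaryocyte (3 tested) and mast cell markers (1 tested) had no gene past the thresholds by edgeR (1, 1 and 0 at an unadjusted p under 0.05; 1, 1 and 0 by DESeq2; 0, 0 and 1 by limma-voom). Of 4 stem cell markers 2 were higher (*CD34* and *MYB*) and 0 were lower by edgeR, whereas 1 was lower at an unadjusted p under 0.05, by DESeq2 and by limma-voom. Total counts were 19654917 to 29308882 per clone. Intervals and floors cover counting error only.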

Additional observations from a re-analysis of the deposited data

Results flagged for a closer look

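Among 152 groups of 4 clones (76 named genes in each fat depot), 15 held a clone whose gap to its nearest neighbour, as a share of the group's range, was above Dixon's critical value. Chance gives about 1 in 20 groups for values with a spread, but in 5 of the 15 only 1 clone had any count, which puts the share at its maximum by construction, and the 6 groups at 0 in every clone could not be found, so the number is not set against that rate. Of the 10 transcription factors, this held in 4 of 20 groups: *GATA2* in SF1, the highest SF clone at 110 CPM, *SOX17* in SF3 at 1.30 CPM, *LMO2* in SF3 at 0.0406 CPM, which is 1 count, and *SOX7* in IMF1, the highest IMF clone at 3.17 CPM.

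SF1 was also highest for *KCNJ5* (115 CPM) and *SOX8* (0.103 CPM, 2 counts) and lowest for *KLF4* (27.1 CPM). SF4 was highest for *ADGRL4* (1.21 CPM) and *LAPTM5* (2.64 CPM), and SF2 for *TIE1* (0.0501 CPM, 1 count). Among the IMF clones, IMF1 was highest for *ETV5* (3.84 CPM) and *KCNJ5* (0.0960 CPM, 2 counts), IMF2 was lowest for *SOX8* (19.5 CPM), and IMF4 was highest for *TIE1* (14.0 CPM) and lowest for *ETV1* (5.71 CPM).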

How the results depend on the processing

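Of 190 values of the 10 factors under 19 alternatives, 176 kept their direction and side of the thresholds, 14 kept the direction but were no longer past them (7 each for *SOX17* and *GATA2*), and 0 reversed. The count of factors lower in IMF was 0 under limma-voom and glmTreat and 0 to 1 without 1 clone. With glmTreat 631 genes passed (476 higher, 155 lower), with 1 other ETS gene (lower), 2 other SOX genes (higher), 1 partner (higher), 1 regulator lower and 0 neighbours. Only 1 regulator was lower under limma-voom and under total counts alone, and 0 neighbours passed under limma-voom or with 10 counts in 4 clones. Without 1 clone, 2 to 5 ETS genes, 1 to 3 partners, 1 to 2 regulators lower and 0 to 1 neighbours passed. With a prior count of 0.5, 2 of the 5 genes most like *ERG* were kept. Scaling by total counts alone moved the median of all genes from -0.03 to 0.12 and the share of higher calls from 54.2% to 66.7% (glmTreat, 75.4%).

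The replicate numbers were not taken as pairing the clones, since no label ties them to an animal and not every same-number correlation was over 0.1, though this does not show that they are unpaired (same-number correlations of deviations -0.0093 to 0.139, mean 0.055, against a mean of -0.018 for different numbers, 4 of 8 clones closest to their own number). With the replicate block 1489 genes passed against 1618, and 6 factors (6 higher, 0 lower) and 1 regulator lower. Reversed were genes near 0 or with few counts: *EEFSEC*, 0.014 by total counts, -0.20 to 0.020 without 1 clone; *ENG*, -0.0043 by DESeq2, -0.0044 by RLE, -0.028 unfiltered, -0.025 with 10 counts in 4 clones, -0.12 to 0.17 without 1 clone; *SOX12*, 0.17 by limma-voom, 0.12 by total counts or the block, -0.25 to 0.27 without 1 clone; *XKR4*, -1.05 by limma-voom, -0.99 with the block, -1.35 to 0.76 without 1 clone. The cause of these changes was not tested. Depth limits *SOX7*, *SOX18* and *LMO2* in SF, at 0 or 1 counts.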
